A study of Homo sapiens with 23 samples.

Results

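The PRODH locus on chromosome 22 was examined as 3 genes of 36085 quantified: PRODH, DGCR6 and ENSG00000283809, a gene model with no assigned symbol that starts beside DGCR6 and ends upstream of PRODH. The 3 genes were selected by position, in a window of 100 kb (chr22:18850000-18950000, hg19), and with their RNA values in these libraries already known, so their own RNA change is given as a description without a test. The study placed a doxycycline-inducible dCas9-KRAB and 2 sgRNAs against SVA retrotransposons into NCCIT cells, an established human embryonal carcinoma line, by piggyBac transposition (SCi-NCCITs). dCas9-KRAB is a Cas9 that binds without cutting, fused to a repressor (KRAB) domain, and it leads to trimethylation of histone H3 at lysine 9 (H3K9me3) where a guide brings it to DNA. RNA came from 3 untreated SCi-NCCIT libraries (no doxycycline) and from 3 that followed 72 hours in 2 µg/mL doxycycline. Peak lists were used from 2 against 2 libraries for H3K9me3 and for YY1, from 1 against 1 for OCT4, and from 1 H3K9me3 library of NCCITs without the transgene.

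The cells descended from clones selected for dCas9-KRAB. All SCi-NCCIT libraries carried dCas9-KRAB and both guides, and no library came from doxycycline-treated cells that lacked them, so the action of doxycycline itself and that of dCas9-KRAB cannot be told apart here. The methods do not say that the replicates came from separate cultures, so p-values measure only the spread between these libraries. The RNA libraries held 14683468 to 47862394 estimated counts on annotated genes, the fewest in replicate 1 without doxycycline. ZNF10, whose KRAB domain is often used in such fusions although the methods do not name the source here, was at 10.0 to 11.8 CPM (counts scaled to the library total) without doxycycline and 362 to 459 with it (log2 fold change 5.19, SE 0.115, edgeR adjusted p = 5.6e-08). All 10 markers of pluripotent cells were above 1 TPM (a level scaled to transcript length and library total), with POU5F1 at 168 to 250 TPM, whereas the summed markers of fibroblasts were at 14.6 to 19.3 TPM, of neural cells at 9.44 to 11.7, of blood cells at 3.14 to 3.93 and of liver at 0.515 to 1.13. Of those 10, 6 were lower with doxycycline by edgeR, among them TDGF1 and NANOG, and their part in the results at the locus was not tested. In bulk RNA, fewer cells of a type and less RNA per cell cannot be told apart.

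PRODH encodes proline dehydrogenase, the mitochondrial enzyme of the first step of proline breakdown, and lies with DGCR6 in the 22q11 region that is lost in DiGeorge syndrome. DGCR6 and its near-identical copy DGCR6L, farther along the same region, stem from a duplication. A provirus is a retroviral copy framed by identical long terminal repeats (LTRs), which hold promoter and enhancer activity, and a human-specific provirus of the HERV-K group is known to lie upstream of PRODH, where its LTR can act as an enhancer. LTR5Hs, the LTR of that group, shares sequence with SVAs, and the guides were designed in earlier work against such shared sequence.

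By the annotation, DGCR6 lay on the plus strand at chr22:18893541-18901751 and PRODH on the minus strand at chr22:18900290-18924066. ENSG00000283809 lay on the plus strand at chr22:18893751-18935245, so that its 41495 bp ran through DGCR6, antisense to the whole of PRODH, and 11 kb beyond the PRODH start. A search of the sequence upstream of PRODH against itself found a pair of direct repeats of 968 and 964 bp that matched at 99.2% over 968 aligned positions. The left repeat was at chr22:18926187-18927154, which is 2121 bp upstream of the PRODH start at its near end, and the right repeat at chr22:18934398-18935361. They framed 7243 bp, the arrangement of a provirus. No repeat annotation was used, and the pair is called the left and the right repeat. Over chromosomes 1 to 22, X and Y, 199 copies covered at least 90% of the repeat at 95% identity or more, and 77 at 98% or more.

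Both repeats held a match to each sgRNA, which is why these sites are shown first. The 4 matches comprised 2 of sgRNA1 with no mismatch and 2 of sgRNA2 with 1 mismatch, T1C, counted from the 5′ end of the guide. The genomic sites were read from hg19 in the direction of the guide, with the adjoining NGG motif in capitals, and each letter string occurred in both repeats.
sgRNA1 site, plus strand, chr22:18926444-18926466 and chr22:18934655-18934677: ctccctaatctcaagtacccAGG
sgRNA2 site, minus strand, chr22:18926320-18926342 and chr22:18934531-18934553: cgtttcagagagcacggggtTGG
The sites of the left repeat fell in no annotated exon, inside an intron of ENSG00000283809. Those of the right repeat fell in exon 6 of ENSG00000283809, in its 3′ untranslated region, and in exons of ENSG00000284294, a non-coding gene that was not among the quantified transcripts.

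ENSG00000283809 was represented by a single transcript, ENST00000638240, of 1669 nt in 6 exons. Its first 4 exons overlapped DGCR6, and 568 nt (34.0%) of the transcript lay within DGCR6 exons. Intron 4 spanned 28644 bp to exon 5 (chr22:18927186-18927262), which began 31 bp after the left repeat ended. Exon 6 (chr22:18934304-18935245) measured 942 nt, of which 848 nt (50.8% of the transcript) lay in the right repeat. The annotated splice between exons 4 and 5, which joins DGCR6 to sequence between the repeats, read as follows on the plus strand, with the first bases of exon 5 at chr22:18927186 in capitals.
exon 4 to exon 5: accaccaacccacagGGTGAAGGTACGCTC

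Of the 912 words of 31 nt in exon 6, 853 (93.5%) occurred more than once in hg19, with a median of 130.5 copies. Each word of exons 2 to 6 also occurred in transcripts of other genes, as did 62.2% of those in exon 1. The search covered all annotated transcripts, including those of ENSG00000284294, which were not quantified. For the exons shared with DGCR6, the estimated counts of ENSG00000283809 therefore rest on how kallisto divided reads that match several transcripts. For the exons beyond DGCR6, how many of the other transcripts were quantified was not examined. Reads from other copies of the repeat could have been counted in exon 6, which was not tested. PRODH differed in this respect, since at most 12.7% of the words of any of its transcripts occurred in transcripts of other genes. Its transcripts held between 0% and 50.9% of words with more than 1 copy in the genome and at most 1.27% with 100 copies or more. For the whole transcript of ENSG00000283809 these shares were 93.3%, 69.0% and 37.4%. Because ENSG00000283809 runs antisense through PRODH, reads of the other strand could have entered the PRODH counts. PRODH lies wholly within intron 4 of ENSG00000283809, so such reads would have come from its unspliced RNA. DGCR6, also on the plus strand, overlaps the 3′ end of PRODH, and its reads could have entered the PRODH counts too. The methods do not say whether kallisto used the strand of the reads, and this was not tested.

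ENSG00000283809 was by far the most abundant of the 3 genes and was lower with doxycycline. Its level was 1435, 1503 and 1330.3 CPM in replicates 1 to 3 without doxycycline, and 281, 267 and 248 CPM with doxycycline. All libraries with doxycycline were below all those without it. The means were 1423 ± 87.1 and 266 ± 16.5 CPM (SD, n = 3 each), which is a log2 fold change of -2.42 (SE 0.0698) or 18.7% of the level without doxycycline. Of 16371 genes tested, 50 had a higher mean CPM without doxycycline and 535 with it.

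PRODH showed the same direction at a lower level. Without doxycycline it was at 143, 149 and 114 CPM, and with doxycycline at 35.4, 31.3 and 36.4 CPM. The groups did not overlap, and replicate 3 was the lowest of those without doxycycline. The mean went from 135 ± 18.4 to 34.4 ± 2.67 CPM (SD, n = 3 each), a log2 fold change of -1.98 (SE 0.104) that left 25.4% of the level. Among the genes tested, 29 had a lower log2 fold change than ENSG00000283809 and 54 a lower one than PRODH.

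DGCR6 went the other way and by far less. Its values were 10.97, 10.1 and 10.7 CPM without doxycycline and 14.04, 12.7 and 13.3 CPM with it. These groups did not overlap either, with means of 10.6 ± 0.467 and 13.3 ± 0.687 CPM (SD, n = 3 each) and a log2 fold change of 0.34 (SE 0.0794). Per length, on the TPM scale, the mean went from 12.3 ± 0.962 to 14.6 ± 1.65 (SD, n = 3 each), and the groups overlapped, since replicate 2 with doxycycline was at 12.7 TPM and replicate 1 without it at 13.0. Counts summed over DGCR6 and DGCR6L gave a log2 fold change of 0.16. DGCR6L alone was at 28.2 to 34.2 CPM without doxycycline and 30.1 to 34.1 with it, and did not pass the test (log2 fold change 0.09, SE 0.0851, edgeR adjusted p = 0.51). Between 27.0% and 58.6% of the words of each DGCR6 transcript occurred more than once in the genome. The share found in transcripts of other genes was 14.98% to 85.2%. ENSG00000283809 had 568 nt within DGCR6 exons, so the DGCR6 counts also rest on how kallisto divided the reads that match both genes. Whether the higher DGCR6 values with doxycycline depend on that division was not tested.

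**Figure D1:**
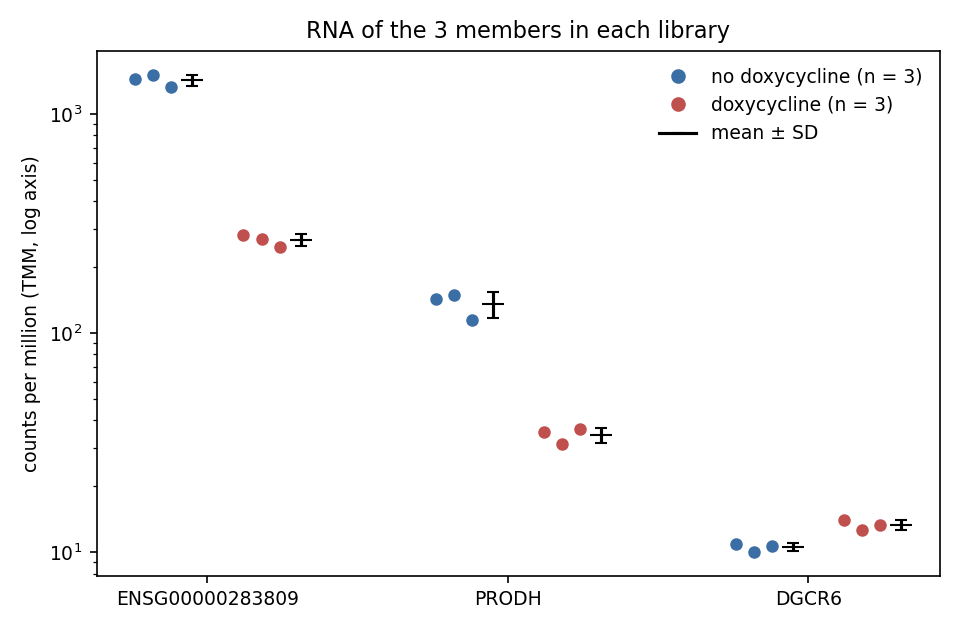
CPM of ENSG00000283809, PRODH and DGCR6 on a log axis, with 1 point for each of 3 libraries without (blue) and 3 with doxycycline (red) and the mean ± SD in black. ENSG00000283809 sits at 1330.3 to 1503 against 248 to 281, PRODH at 114 to 149 against 31.3 to 36.4, and DGCR6 at 10.1 to 10.97 against 12.7 to 14.04.

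2 of the 3 genes were lower without overlap of the groups and 1 was higher. Over all genes tested, 17.8% were lower and 19.2% higher without overlap, and by edgeR at an adjusted p under 0.05, 8.48% were lower and 8.97% higher. Since the genes were selected on this contrast, nothing is read from their count. The order of the levels on the TPM scale, ENSG00000283809 above PRODH above DGCR6, was found in each of the 6 libraries. ENSG00000283809 exceeded PRODH by 8.15 to 10.1 times without doxycycline and by 6.30 to 7.70 times with it. Over DGCR6 the ratio was 90.6 to 120 times without doxycycline and 13.96 to 17.4 times with it. Of the estimated counts of the 3 genes together, ENSG00000283809 held 90.7% ± 0.594 without doxycycline and 84.7% ± 1.298 with it (SD, n = 3 each).

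Most PRODH counts were assigned to transcripts annotated as retained introns, which keep intron sequence and are not translated into the enzyme. The 8 transcripts of that type held 93.5% of the PRODH counts without doxycycline and 92.1% with it, and the 7 protein-coding ones the rest. The long protein-coding transcripts PRODH-202 and PRODH-215 were listed at 0 in all 6 libraries, and PRODH-203 at 0 in 4 of the 6 and at 0.0403 TPM or less in the others. PRODH-205, a protein-coding model of 2034 nt, was at 0.153 to 0.3596 TPM without doxycycline and 0.0423 to 0.118 TPM with it. The protein-coding transcripts with a mean of at least 1 TPM were the short models PRODH-210 (491 nt) and PRODH-207 (553 nt).

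Of 15 PRODH transcripts, 8 had a mean of at least 1 TPM in either condition. PRODH-213, the most abundant per length, held no word that occurs more than once in the genome. It was at 64.3, 63.3 and 44.3 TPM without doxycycline and at 12.7, 10.2 and 13.4 TPM with it, so the groups did not overlap. PRODH-206 was at 18.1 to 23.6 against 4.12 to 4.99 TPM, and PRODH-211, which took the largest share of the counts, at 12.6 to 16.1 against 3.52 to 4.88 TPM. PRODH-210 was at 16.9 to 29.9 against 5.55 to 7.52 TPM, and PRODH-207 at 8.59 to 11.3 against 2.63 to 3.57 TPM.

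The 8 transcripts kept between 19.2% and 30.3% of their level, and 7 of them were lower without overlap. PRODH-201 was the exception, with overlapping groups at a mean of 2.15 ± 1.37 against 0.652 ± 0.570 TPM (SD, n = 3 each). Of all 50462 transcripts with a mean of at least 1 TPM, 13.2% were lower and 10.1% higher without overlap. Of 8 DGCR6 transcripts 5 reached that mean, and 2 of the 5, DGCR6-207 and DGCR6-205, were higher without overlap, at 136% and 142% of their level. The transcripts of a gene share exons and reads and are not replicates of each other.

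**Figure D2:**
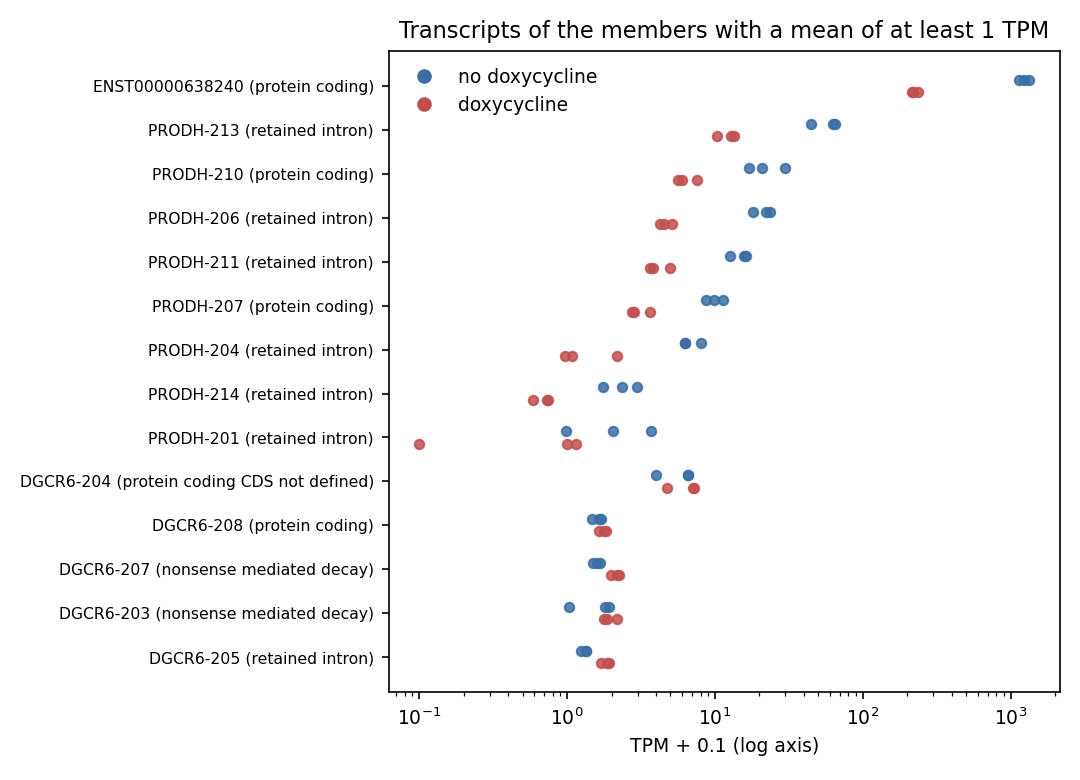
TPM of each member transcript with a mean of at least 1 TPM, plotted as TPM + 0.1 on a log axis with 1 point for each library, without (blue) and with doxycycline (red). The points of ENST00000638240 and of 7 of the 8 PRODH transcripts fall into separate groups, the red ones lower, whereas those of 3 of the 5 DGCR6 transcripts overlap.

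H3K9me3 formed new peaks upstream of PRODH only in the libraries with doxycycline. Over the window, peaks covered 4803 bp in the NCCITs without the transgene, 5314 and 4421 bp in SCi-NCCITs without doxycycline, and 11157 and 12664 bp with it. The first 3 libraries had 5 peaks each and the last 2 had 10 each. The difference of the means was 7043 bp (4868 ± 631 against 11910.5 ± 1066 bp, SD, n = 2 each, two-sided exact permutation test p = 0.33, the smallest that 2 against 2 allows).

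The 5 peaks of the first libraries lay at 5 sites between chr22:18878081 and chr22:18889470, beside or within the non-coding gene FAM230F, and each of these sites had a peak in all 5 libraries. The strongest, at chr22:18883366-18884460, had a fold enrichment over local background of 44.6 in the NCCITs, 53.2 and 62.7 without doxycycline and 57.3 and 43.1 with it. The strongest YY1 peak of the window lay at the same place, at 21.9 and 27.6 without doxycycline and 40.5 and 35.1 with it. So did the strongest OCT4 peak, at 15.6 without doxycycline and 17.0 with it. Why peaks of all 3 antibodies coincided there was not tested. Before the DGCR6 start, peaks covered 4421 to 5314 bp without doxycycline and 4878 to 5225 bp with it. The values of that stretch overlapped between the conditions.

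From the PRODH start onwards the groups separated. The 2120 bp between the PRODH start and the left repeat were covered over 2052 and 2120 bp with doxycycline and over 0 bp in the 3 other libraries. The repeats and the sequence between them, 9175 bp in all, were covered over 2950 and 3068 bp with doxycycline and 0 bp in the others. Beyond the right repeat it was 1277 and 2106 bp against 0 bp. Within the PRODH gene only replicate 2 with doxycycline had a peak base (145 bp), and within DGCR6 none of the 5 libraries did. With 2 libraries a group, the exact permutation test of each of these comparisons cannot go below p = 0.33.

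Overlapping peaks of the SCi-NCCIT libraries were joined into 11 H3K9me3 sites in the window, of which 3 were gained, that is, had a peak in each doxycycline library and in no untreated one (27.3%, against 0.846% of all sites in the genome). All 3 touched the repeats or the sequence between them. The first ran over chr22:18923922-18926434, from the PRODH start into the left repeat, with fold enrichments of 10.96 and 10.1. The second, chr22:18932461-18933911, lay between the repeats at 5.30 and 11.7. The third, chr22:18934522-18937033, ran from the right repeat outward at 9.70 and 7.04. A further 3 sites had a peak in 1 of the libraries with doxycycline, at 3.73 to 6.45.

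**Figure D3:**
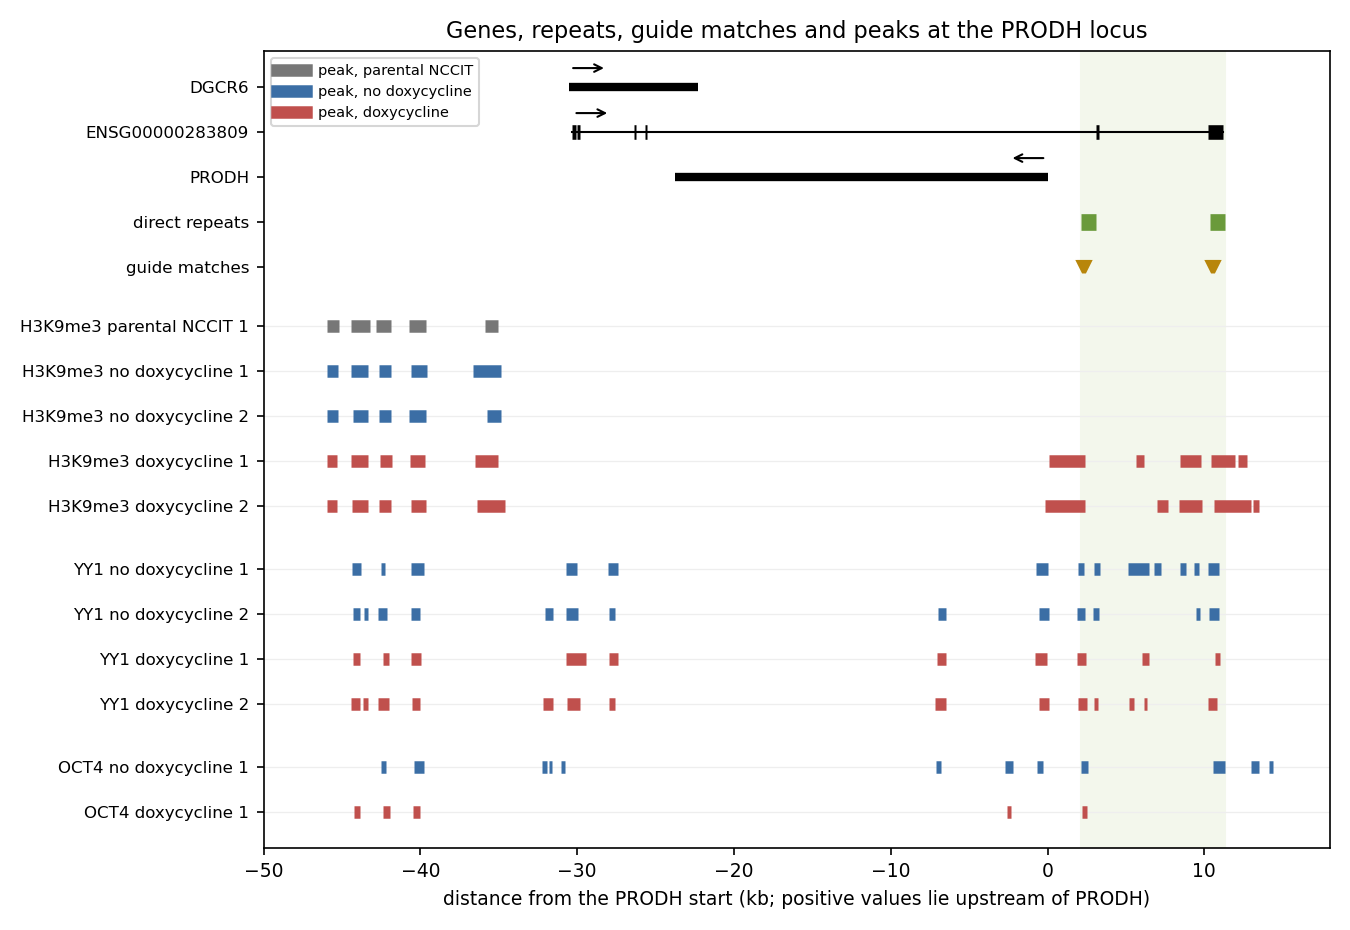
Genes (exons as blocks for ENSG00000283809, whole gene bodies for the others, arrows in the direction of transcription), repeats, guide matches and the peaks of each library, against the distance from the PRODH start in kb. H3K9me3 peaks (upper rows of bars) lie upstream of PRODH in both doxycycline libraries only, while the 5 sites left of DGCR6 have a peak in all 5 libraries.

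At the guide matches themselves the peaks often stopped just short. The repeats are nearly identical and only reads of mapping quality over 10 were kept. Peak ends in or beside them can therefore also depend on where reads could be mapped, which was not tested. Replicate 1 with doxycycline had an H3K9me3 peak over 3 of the 4 matches and replicate 2 over 1, against 0 in both libraries without doxycycline and 0 in the NCCITs. The mean difference was 2 matches (two-sided exact permutation test p = 0.33), and it was 1 without replicate 1 and 3 without replicate 2 of the doxycycline libraries. At the left sgRNA1 match, the nearest peak ended 10 and 13 bp away in replicates 1 and 2. In the right repeat, the nearest peak of replicate 2 began 31 bp from the sgRNA1 match and 155 bp from the sgRNA2 match. With a margin of 500 bp, each doxycycline library had a peak at all 4 matches and each library without it at none.

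Such a change was common at matching sequences. When guide matches less than 2000 bp apart were joined, the genome held 3138 loci with up to 3 mismatches, and 20.9% of them gained H3K9me3 in this sense. A locus with a peak in an untreated SCi-NCCIT library could not count as gained. The share of loci with a peak was 21.4% in the NCCITs, 55.5% and 33.5% without doxycycline, and 79.9% and 74.3% with it. In the window 1 of 2 such loci did, the left one. Of the 199 copies of the repeat, 63.3% showed that pattern, both copies here included. The share of those copies with an H3K9me3 peak was 14.1% in the NCCITs, 23.6% and 23.1% without doxycycline, and 90.5% and 91.5% with it.

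YY1, a zinc finger factor that binds promoters and enhancers, had peaks at the locus in both conditions. They covered 7726 and 6279 bp of the window without doxycycline and 5883 and 7334 bp with it, so the groups overlapped. The difference of the means was -394 bp (two-sided exact permutation test p = 0.67), and it became 329.5 bp without replicate 1 of the untreated libraries and 331.5 bp without replicate 1 of those with doxycycline. Of 17 YY1 sites, 8 had a peak in all 4 libraries. They included the DGCR6 start, where fold enrichment was 9.64 and 7.37 without doxycycline and 8.28 and 6.98 with it, and the PRODH start, at 4.84 and 6.08 against 5.47 and 4.87.

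The left edge of the left repeat also had a YY1 peak in all 4 libraries, with fold enrichments of 5.32 and 13.6 without doxycycline and 3.81 and 7.61 with it. The 2 groups overlapped, and within each set of libraries (the first of each condition, and the second) the doxycycline value was the lower one. Of the 8 sites with a peak in all 4 libraries, 2 were lower in both sets, this one and the DGCR6 start. The 3 that were higher in both lay between chr22:18879656 and chr22:18884310, beside or within FAM230F, where every H3K9me3 library had peaks. The others differed between the sets. In the right repeat YY1 stood at 5.65 and 4.79 against 3.998 and 6.34. Only 1 of the 17 sites (5.88%) was lost, that is, present in each untreated library and in no doxycycline library, against 0.242% of all YY1 sites. It lay between the repeats, at chr22:18933419-18933800, with fold enrichments of 5.65 and 4.05. Over the repeats and the sequence between them, YY1 peaks covered 3783 and 1516 bp without doxycycline and 1036 and 1742 bp with it, and replicate 1 without doxycycline stood apart. Within the PRODH gene they covered 878.5 ± 216 bp without doxycycline and 1248 ± 23.3 bp with it (SD, n = 2 each, difference 369 bp, two-sided exact permutation test p = 0.33). The lists held 56370 and 76098 YY1 peaks without doxycycline and 82005 and 115673 with it. When the same number of peaks was taken from each list, the difference over the window was -1294 bp.

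OCT4, the pluripotency factor encoded by POU5F1, was profiled in 1 library per condition, so its values have no replicate check. The window held 12 OCT4 peaks over 5112 bp without doxycycline and 5 peaks over 1817 bp with it. In the left repeat the peak was present in both, with a fold enrichment of 6.24 and 4.99. In the right repeat it was present only without doxycycline, at 7.90. A peak within PRODH close to its start (chr22:18923409-18923786, 5.15) and another before the DGCR6 start (6.65) were likewise present only without doxycycline. In all, 8 of 13 OCT4 sites (61.5%) were in the first list and not in the second, close to the 56.8% of all OCT4 sites, and the second list was shorter as a whole, with 23352 peaks against 50775. Taking the same number of peaks from each list moved the difference from -3295 to -793 bp. POU5F1 RNA did not pass the test (log2 fold change -0.12).

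**Figure D4:**
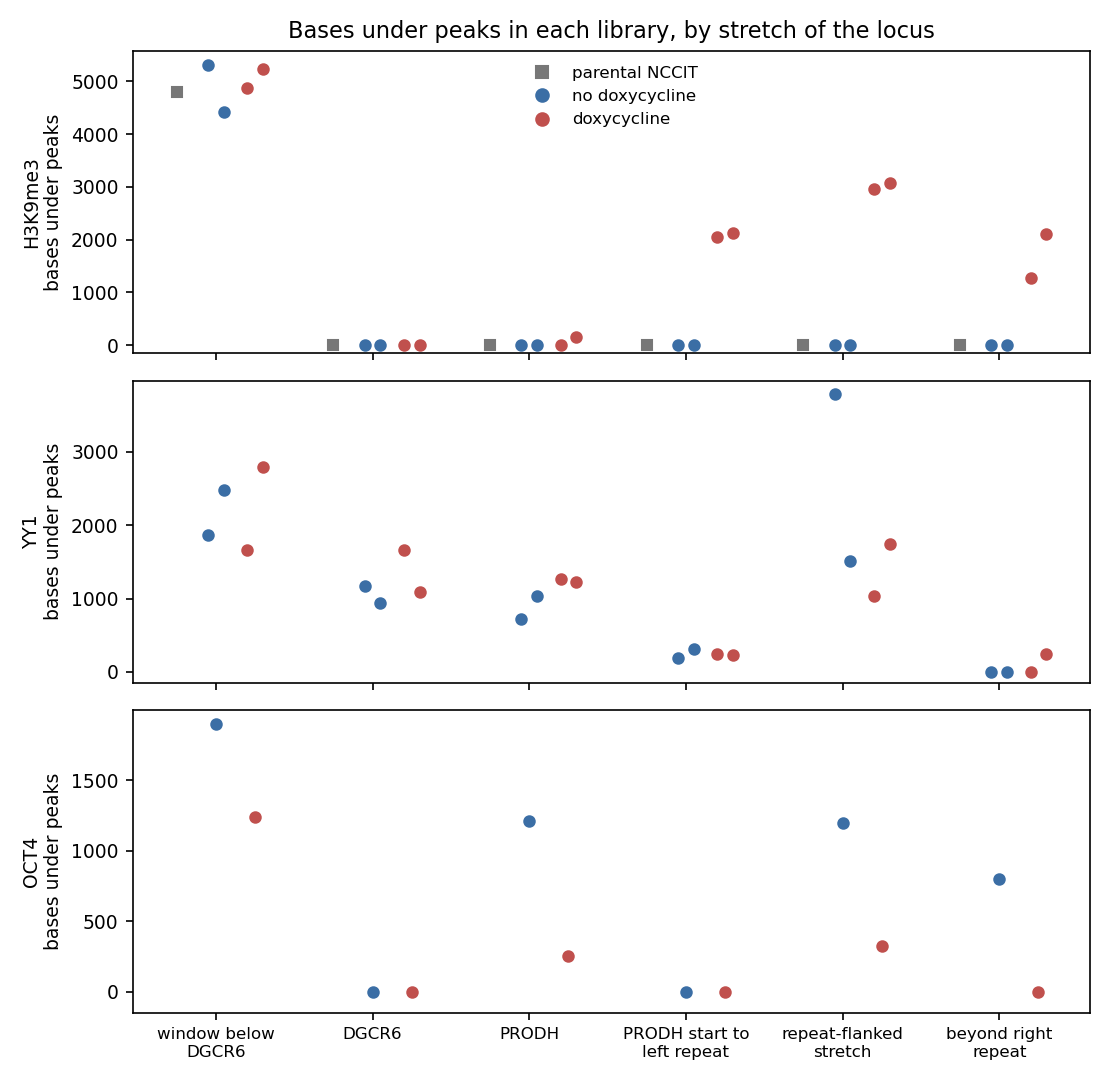
Bases under H3K9me3, YY1 and OCT4 peaks in each library (1 point each) for 6 stretches of the locus, with NCCITs without the transgene as grey squares. H3K9me3 differs from the PRODH start onwards, with 0 bp in the 3 libraries without doxycycline and 2950 and 3068 bp with it across the repeats, whereas the YY1 values of the conditions overlap there.

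The peaks were then placed against the left repeat and the guide matches. How well reads map within the nearly identical repeats can also shape the position of these summits, which was not tested. The 4 YY1 summits at the left repeat lay between chr22:18926107 and chr22:18926192, from 80 bp before to 5 bp after its first base. The OCT4 summit fell on the same base in both libraries, 226 bp after that edge at chr22:18926413, between the guide matches. A motif search was made on both strands for the YY1 motif AANATGGC and the octamer-type motif ATGCNAAT, which do not overlap each other. The YY1 motif occurred once in each repeat, as AATATGGC at position 366 (chr22:18926552-18926559 and chr22:18934763-18934770). The 166 bases around the YY1 summits at the left repeat (chr22:18926067-18926232) held no match to it. In the right repeat the YY1 summits lay at chr22:18934474 and chr22:18934810 without doxycycline, and at chr22:18934819 and chr22:18934803 with it.

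The first 150 bases upstream of the PRODH start, which the new H3K9me3 peak covered wholly in replicate 2 and in part in replicate 1, held 1 octamer-type match and no YY1 match. They are given on the minus strand (chr22:18924067-18924216) with the match in capitals.
upstream of PRODH: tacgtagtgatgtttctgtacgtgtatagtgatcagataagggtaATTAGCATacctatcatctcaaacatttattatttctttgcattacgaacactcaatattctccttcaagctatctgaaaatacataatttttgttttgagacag
A match of this kind is a description of the letters and no evidence of a bound site. No OCT4 peak of either library covered a base between the PRODH start and the left repeat. Around the OCT4 summits of the library without doxycycline, 12.6% of windows of 150 bases held the octamer-type motif, and around the YY1 summits of replicate 1 without doxycycline 29.2% held the YY1 motif.

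The genes around the locus were compared next, with edgeR and adjustment over all genes. Of 98 annotated genes whose start lay within 1 Mb of the window, 28 were tested, of which 4 were higher with doxycycline and 3 lower. That is 25% of them, against 17.5% of all genes, and their median log2 fold change was 0.05 against -0.0025 over all genes. No tested neighbour was as low as PRODH or ENSG00000283809, the lowest log2 fold change being -0.89. Without replicate 2 of the doxycycline libraries 4 of them were called.

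The called neighbour with the largest change was GP1BB, a subunit of a platelet adhesion receptor, at 0.627 to 1.16 CPM without doxycycline and 1.47 to 2.19 CPM with it (log2 fold change 1.03, SE 0.262, edgeR adjusted p = 0.027). SEPTIN5, a filament-forming GTPase whose gene overlaps GP1BB on the same strand so that reads could be divided between them, was at 7.35 to 8.06 against 11.3 to 11.8 CPM (log2 fold change 0.59, edgeR adjusted p = 0.0016). SLC25A1, the mitochondrial citrate carrier, was higher at a log2 fold change of 0.35 (edgeR adjusted p = 0.012). SLC25A18, a mitochondrial glutamate carrier, was lower at 5.73 to 7.03 against 2.87 to 3.81 CPM (log2 fold change -0.89, edgeR adjusted p = 0.0030). CLDN5, a tight junction protein, was lower at a log2 fold change of -0.70 (edgeR adjusted p = 0.042). Within 500 kb of the window 2 of 13 tested genes were called.

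**Figure D5:**
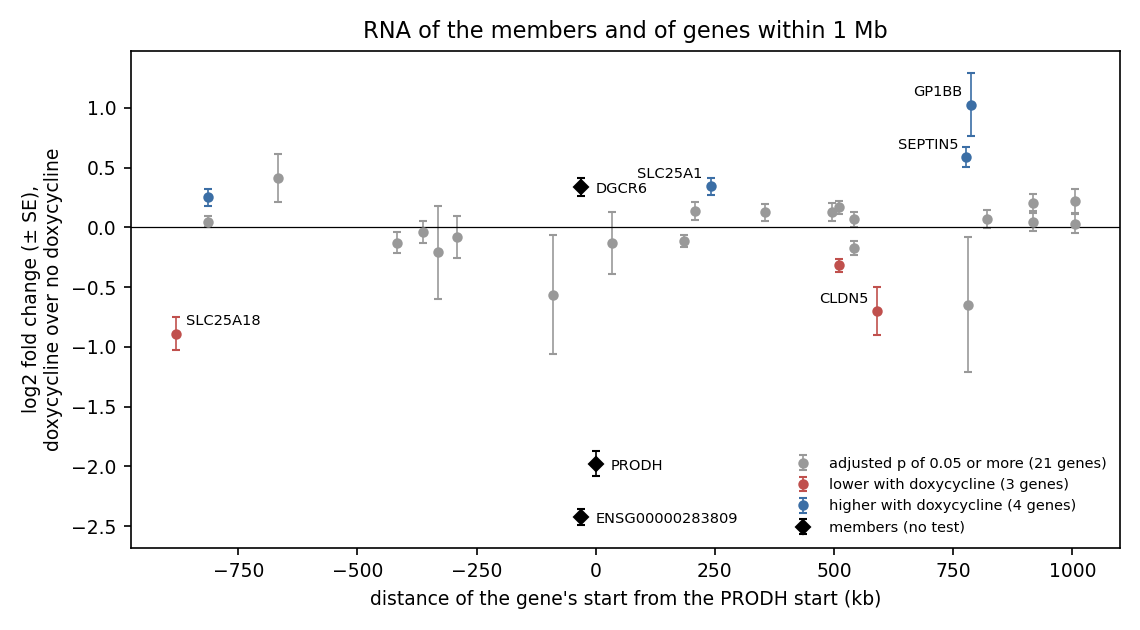
Log2 fold change (± SE) of the 3 members (diamonds, no test) and of 28 tested genes with a start within 1 Mb of the window, against the distance from the PRODH start in kb. The neighbours lie between -0.89 and 1.03, with 4 called higher (blue) and 3 lower (red), and the diamonds of PRODH and ENSG00000283809 lie at -1.98 and -2.42.

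The other genes of proline metabolism changed little. Of 19 listed, 17 were tested, and 2 were higher and 2 lower with doxycycline, which is 23.5% against 17.5% of all genes. Their median log2 fold change was 0.07. Without replicate 2 of the untreated libraries, or without replicate 1 or 2 of those with doxycycline, 1 of them was called, and without replicate 3 of either condition 2 were. PRODH2, which acts on hydroxyproline, and SLC6A7, a neuronal proline transporter, were too low to test, at means of 0.0444 TPM or less.

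ALDH4A1, which carries out the step after PRODH, was at 38.9 to 45.7 CPM without doxycycline and 44.7 to 49.7 with it and did not pass (log2 fold change 0.15, edgeR adjusted p = 0.18). Of the genes of proline synthesis, PYCR1 and PYCR3, reductases of the last step, had log2 fold changes of 0.15 (edgeR adjusted p = 0.19) and 0.16 (edgeR adjusted p = 0.61), and ALDH18A1, the enzyme of the first steps, of 0.14 (edgeR adjusted p = 0.12), and none of them passed. P4HA2, a subunit of the enzyme that hydroxylates proline in collagen, was higher at a log2 fold change of 0.53 (SE 0.0998, edgeR adjusted p = 0.0075). Its relative P4HA1 had a log2 fold change of 0.39 and an edgeR adjusted p of 0.051.

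GLUD1, the mitochondrial glutamate dehydrogenase, was lower at 527 to 547 against 454 to 478 CPM (log2 fold change -0.21, SE 0.0498, edgeR adjusted p = 0.022). SLC6A20, a transporter of proline and related amino acids, was lower at 2.25 to 2.95 against 1.86 to 1.91 CPM (log2 fold change -0.52, SE 0.149, edgeR adjusted p = 0.041). A further 7 tested genes, OAT, ARG2, PEPD, L3HYPDH, HOGA1, SLC36A1 and SLC36A4, had log2 fold changes from -0.11 to 0.17 and none passed.

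The genes whose log2 CPM was most like that of a member over the 6 libraries were taken among 13877 genes as a description. With 2 conditions, such a correlation mostly reflects the difference between them, and the points share their libraries. For ENSG00000283809 they were ARMT1, CDV3 and CILP (Pearson r of 0.999 or more over 6 libraries), with log2 fold changes of -1.47, -1.13 and -4.62. For PRODH they were LRP4, MYO5C and SLC23A2 at log2 fold changes of -0.94, -0.75 and -1.0. For DGCR6 they were FSCN1, ARFGAP1 and ATP8B3 (Pearson r of 0.994 or more), at 0.33, 0.40 and 0.70.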

How the data were processed

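The members and gene lists were chosen with earlier results of these data known. The authors aligned ChIP-seq reads to hg19 with BWA, kept reads of mapping quality over 10 and called peaks at a 5% FDR, and the deposited lists hold each summit's fold enrichment as a ratio with −log10 p- and q-values. The peak caller is not given in the sources used here, and no read depth comes with the lists. For RNA, the deposited files give an estimated count and a TPM value for each transcript, as the authors obtained them from kallisto. Of 188753 transcripts, 166506 (88.2%) were assigned to genes of GENCODE 44 lifted to hg19. Counts were added up by gene and rounded. The comparison used the quasi-likelihood test of edgeR 4.0.16 under R 4.3.3 (TMM, filterByExpr, Benjamini-Hochberg adjustment over all genes, threshold 0.05), with DESeq2 1.42.0 as an alternative. Expression of each library is given as TMM-scaled CPM.

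Between libraries of a condition, counts differed by 7.29 to 14.6 times the variance of counting alone, so no pair agreed within sampling noise. Guide matches (NGG motif, up to 3 mismatches) and 31-nt words were counted on hg19, with repeats found by blastn 2.17.0. Peak ends lay within the chromosomes of hg19, and peaks on 59 further contigs were not compared with it. Exact permutation tests used scipy 1.17.1. Named genes were the members, DGCR6L, ZNF10, the proline list, the 5 called neighbours with the largest change, and the 3 genes most correlated with each member (at least 1 CPM). The transcripts named had a mean of at least 1 TPM, and the long protein-coding models below it were added after their values were seen. The edgeR fit, the peak overlap and the guide search were tested on simulated data. Some items of these lists and windows are not reported here. HiChIP contacts of 6 further samples were not analysed here, since their columns could not be assigned to conditions.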

Additional observations from a re-analysis of the deposited data

How the results depend on the processing

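ENSG00000283809 kept its direction within the spread of the replicates under all 15 alternatives, with log2 fold changes of -2.47 to -2.37 when single libraries were left out. PRODH stayed between -2.09 and -1.90 without single libraries and was at -2.38 when summed with ENSG00000283809. DGCR6 stayed between 0.30 and 0.38 without single libraries. It was at 0.16 when summed with DGCR6L and at 0.23 or 0.24 as a difference of log2(TPM + 1) or log2(TPM + 0.1). The call count of neighbours, 7 in the report, was 4 on length-scaled counts, 2 within 500 kb and 4 to 7 without single libraries, and that of proline genes, 4 in the report, was 1 to 5. Over all genes, the 2858 calls became 1640 on length-scaled counts and 1396 to 3259 without single libraries, where fewer samples entered, and the cause of the former was not tested. For H3K9me3, the difference of bases covered, 7043 in the report, was 6262 to 7043 under the alternatives of threshold, peak number and window and 6289.5 to 7796.5 without single libraries. For YY1 it turned to 393.5 with the window extended by 50 kb, and ranged from -1119.5 to 331.5 without single libraries. For OCT4 it was -1990.0 at a −log10 q of 5 or more and -793 with equal peak numbers. The mean difference of guide matches with an H3K9me3 peak was 4 with a margin of 500 bp and 1 to 3 without single libraries.

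Same-numbered RNA libraries deviated together with correlations of 0.128, 0.0799 and -0.000942, and the other pairs with -0.127 to 0.0599. These values do not settle whether the numbers pair the samples. With a replicate block, log2 fold changes were -2.42, -1.97 and 0.33 for ENSG00000283809, PRODH and DGCR6, 7 neighbours and 4 proline genes were called, and 3316 genes in all. For the peaks, the replicate block, added after the data were seen, took differences within the first and within the second libraries of each condition. H3K9me3 covered 5843 and 8243 bp more of the window with doxycycline (mean 7043), YY1 -1843 and 1055 bp (mean -394), and the mean difference of guide matches with an H3K9me3 peak was 2. OCT4 had 1 library per condition.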
